A study of Mus musculus with 8 samples.

Results

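The genes described here encode the proteins of the cytosolic ribosome. They were taken as the array rows whose platform annotation gave exactly 1 symbol of the form Rpl or Rps plus a number, with an optional letter a, x, y or l, or the symbols Rpsa, Rplp0, Rplp1 or Rplp2. Each gene was represented by its brightest row over all 8 arrays. The rule found 61 genes of the 19938 measured, and it used no difference between the samples. They comprised 30 proteins of the large subunit, 3 of its P stalk, 21 of the small subunit and 7 paralogs or like-named genes. Of a list of 80 proteins that make up the mammalian ribosome, 54 were among the 61. The remainder were Fau, measured outside the rule, and 25 genes without a row of their own, which were not analysed as single genes here.

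The platform was the Affymetrix Mouse Gene 1.0 ST array, whose probes lie along the whole transcript. The RNA came from cells of primary mammary tumors under 1.0 cm in diameter from FvB mice of the genotype MMTV-Neu. In this model the MMTV promoter drives rat Neu, the homolog of Erbb2, in mammary epithelium, and both fractions came from tumors with the transgene. Cells were sorted into a fraction labelled TIC, for tumor-initiating cells (4 arrays), and a fraction labelled non-TIC or CD24- and called CD24-negative here (4 arrays). Each pair came from tumor N251, N260 or N283 or from a pool of tumors N222 and N229, whose cells were combined in equal amounts ahead of sorting, so that 5 tumors gave 4 pairs. The sources used here do not give the surface markers of the TIC gate or the ages of the mice.

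A ribosome has a large subunit, which forms peptide bonds, a small subunit, which reads the mRNA, and a flexible stalk of P proteins, which recruits the elongation factors. The subunits are assembled in the nucleolus on ribosomal RNA made by RNA polymerase I, and nearly all of their proteins are needed in equal numbers. The mRNAs of ribosomal proteins begin with a run of pyrimidines, the 5′ TOP motif, through which mTOR and Larp1 control their translation. Tumor cells commonly raise ribosome production through Myc and mTOR.

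The start-site sequences below are shown because the TOP motif is the feature that ribosomal protein mRNAs are known to share, and because they belong to members that the later values turn on. They give 20 bases before and 10 bases from the RefSeq start of each gene on assembly GRCm38.p6, in the direction of the gene, with a pyrimidine run that opens with C at the start in capitals.
Rps6, chr4:86857358-86857387, minus strand: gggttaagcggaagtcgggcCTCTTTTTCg
Rps10, chr17:27635235-27635264, minus strand: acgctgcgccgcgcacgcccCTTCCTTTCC
Rpl28, chr7:4792945-4792974, plus strand: tcgtcccgcctctcgtgtctCTCTTTCCgt
Rpl14, chr9:120571497-120571526, plus strand: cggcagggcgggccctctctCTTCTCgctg
Rplp2, chr7:141447631-141447660, plus strand: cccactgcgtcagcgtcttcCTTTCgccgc
Rps9, chr7:3704021-3704050, plus strand: gtccaaccgccttgtctctctttgtctcgg
Rplp0, chr5:115559447-115559476, plus strand: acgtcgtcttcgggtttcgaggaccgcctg
A C at the annotated start followed by at least 4 pyrimidines was present in 10 of the 49 members matched in the RefSeq table (20.4%), against 813 of all 27025 genes of that table (3.01%). The search read the strand of the gene at the annotated start alone, so that a run a few bases away, as in the Rps9 window, did not count. The TIC minus CD24-negative difference had a median of 0.07 over the 10 members with the run (range -0.10 to 0.47) and of 0.10 over the 39 without it (range -0.26 to 0.48), both on the log2 scale.

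No member differed between the fractions past the threshold. Differences are log2 intensities of the TIC minus those of the CD24-negative array, averaged over the 4 pairs and fitted with limma with the tumor as a block, and a gene was called at an adjusted p under 0.05 over all genes. Of the 61 members 0 were called higher and 0 were called lower in TIC cells, against 0.863% of all genes called higher and 1.09% called lower. At shares this low, 0 of 61 is near the background and says nothing particular about the members. At an unadjusted p under 0.05 the members passing were Rpl14 and Rpl39l, 3.28% of the 61, against 22.3% of all genes. The lowest adjusted p of a member was 0.110 (limma, Rpl14). It was 0.372 without the block. The TIC and CD24-negative arrays overlapped for every member, whereas 9.87% of all genes had fractions that did not overlap. A sorted fraction is a bulk sample, in which fewer cells of a type and less RNA per cell cannot be told apart.

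The differences of the members were small. Their median was 0.09 (1.07-fold) with quartiles of 0.01 and 0.13, where all genes had a median of 0.04 and quartiles of -0.07 and 0.17. The absolute difference was under 0.25 for 56 members (91.8%, against 73.7% of all genes). The 95% interval of the difference lay within 0.5 of 0 in either direction for 56 members (91.8%, against 70.9% of all genes), and within 1.0 for 60 (98.4%, against 91.0%). The median standard error of a difference was 0.0852 for the members and 0.0950 for all genes. The members were brighter, with a median level of 11.6 against 7.45 for all genes, and these comparisons were not matched for level.

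The sign of many of these small differences changed with cyclic loess. Their median stayed positive with median centring (0.13) and quantile normalization (0.08). With the deposited values 50 members had a positive mean difference and 11 a negative one (82.0% positive, against 59.5% of all genes), whereas after cyclic loess 26 were positive and 35 negative and their median was -0.01. Without tumor N251 the median of the members was 0.03. Differences positive in all 4 pairs were found for 11 of 61 members (23.2% of all genes) and negative in all 4 for 3 of 61 (11.8% of all genes). The members were mostly bright, with 57 at or above the median level of all genes, and all genes of that brightness had a median difference of 0.11.

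**Figure D1:**
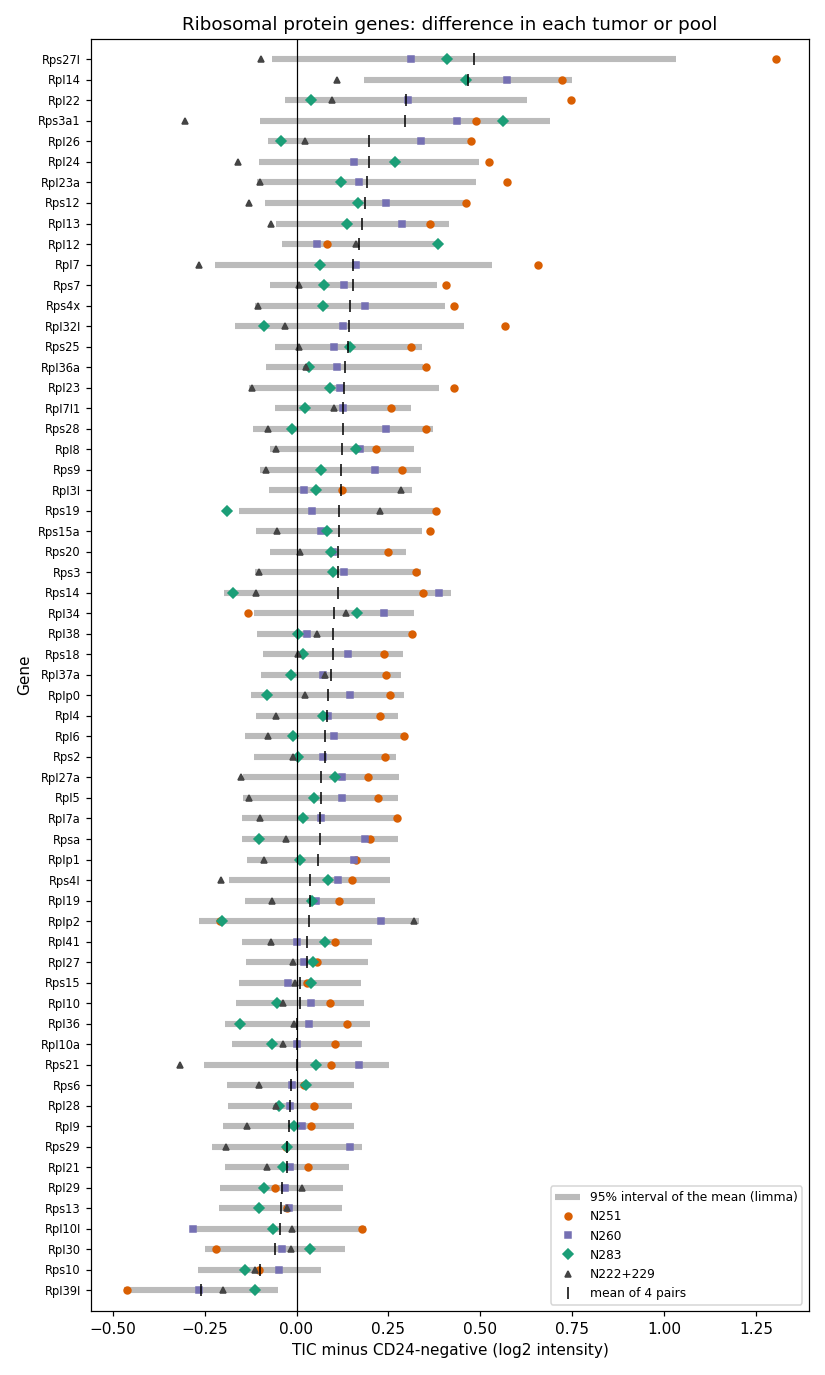
TIC minus CD24-negative difference (x axis, log2 intensity, deposited scaling) of each of the 61 ribosomal protein genes (y axis, ordered by mean), with 1 symbol per tumor or pool, a black tick for the mean of 4 pairs and a grey bar for limma's 95% interval. The means run from -0.26 (Rpl39l) to 0.48 (Rps27l), and 50 are above 0, where 26 are after cyclic loess.

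The large subunit genes had a median difference of 0.08 (30 genes, range -0.06 to 0.47), which was -0.03 after cyclic loess. Rpl14, a large subunit protein, was at 8.66, 8.92, 8.71 and 7.93 in TIC cells of N251, N260, N283 and the pool, against 7.94, 8.34, 8.25 and 7.82 in CD24-negative cells. The TIC array was the higher of each pair, by 0.72, 0.57 and 0.46 in the single tumors and by 0.11 in the pool. The TIC array of the pool lay below every CD24-negative array of the other tumors, so the fractions overlapped. The mean difference of Rpl14 was 0.47 ± 0.11 (SE, n = 4 pairs, 1.38-fold, 95% interval 0.18 to 0.75), with an adjusted p = 0.110 in limma. Its adjusted p ranged from 0.0646 to 0.373 over the alternatives.

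Rpl22, which mice need for the development of alpha-beta T cells and not for bulk translation, was at 10.29, 10.22, 10.28 and 9.98 in TIC cells, against 9.55, 9.92, 10.24 and 9.89 in CD24-negative cells. The CD24-negative array of N251 was the lowest, and the mean difference was 0.30 ± 0.13 (SE, n = 4 pairs, adjusted p = 0.258, limma). Without N251 the difference of Rpl22 was 0.15. Rpl12, part of the base of the stalk, was at 8.14, 8.46, 8.33 and 8.02 in TIC cells, against 8.05, 8.40, 7.95 and 7.86 in CD24-negative cells. N283 had the widest gap for Rpl12, 0.38, and the mean difference was 0.17 (adjusted p = 0.298, limma). Rpl36a and Rpl38 were the other large subunit genes with the higher value in TIC cells of all 4 pairs, by 0.13 and 0.10 on average.

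Several large subunit genes barely differed. Rpl10, an X-linked protein that joins the subunit late in its assembly, was at 13.61, 13.68, 13.65 and 13.67 in TIC cells, against 13.52, 13.64, 13.70 and 13.71 in CD24-negative cells. All 8 values of Rpl10 lay within 0.2 log2 units, and its mean difference of 0.01 turned to -0.07 after cyclic loess. Rpl21 was at 13.36 to 13.41 in TIC cells, against 13.38 to 13.45 in CD24-negative cells. For Rpl5, which carries 5S ribosomal RNA and binds Mdm2, the difference was 0.07 (95% interval -0.14 to 0.28).

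The P stalk genes had differences of 0.09, 0.06 and 0.03 for Rplp0, Rplp1 and Rplp2, and all became negative after cyclic loess (-0.01, -0.03 and -0.04). Rplp0, the protein that anchors the P1 and P2 dimers and a common reference gene in RNA assays, was at 13.29, 13.27, 13.21 and 13.04 in TIC cells, against 13.04, 13.12, 13.29 and 13.02 in CD24-negative cells. The fractions overlapped, with the TIC array the lower in N283. The 95% interval of the Rplp0 difference ran from -0.12 to 0.29 (adjusted p = 0.595, limma). Rplp2 was at 7.61, 7.61, 7.56 and 8.26 in TIC cells, against 7.82, 7.38, 7.76 and 7.94 in CD24-negative cells. Both pool arrays were the highest of Rplp2, and its pairs disagreed in sign, -0.21 in N251 and 0.32 in the pool.

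The small subunit genes had a median difference of 0.11 (21 genes, range -0.10 to 0.29), which was -0.002 after cyclic loess. Rps6, the substrate of the S6 kinases downstream of mTOR, was at 13.63, 13.66, 13.67 and 13.52 in TIC cells, against 13.61, 13.67, 13.64 and 13.62 in CD24-negative cells. Its values were nearly level, and the mean difference was -0.02 (95% interval -0.19 to 0.16, adjusted p = 0.920, limma), or 0.02 after centring each array on its median. Arrays measure the RNA of Rps6 and not its phosphorylation. Rpsa, also known as the laminin receptor precursor, was at 11.72, 11.86, 11.75 and 11.19 in TIC cells, against 11.52, 11.68, 11.85 and 11.22 in CD24-negative cells. The difference of Rpsa was 0.06 (95% interval -0.15 to 0.28, adjusted p = 0.711, limma), or -0.05 after cyclic loess, and the pool was the lowest of the Rpsa pairs in both fractions.

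Rps10, which lies near the mRNA entry of the small subunit, had the lower value in TIC cells of every pair. It was at 12.85, 12.96, 12.92 and 12.87 in TIC cells, against 12.95, 13.00, 13.06 and 12.98 in CD24-negative cells. The gaps were small and even, from -0.05 to -0.14, with a mean of -0.10 (95% interval -0.27 to 0.07, adjusted p = 0.429, limma). Rps13 was also lower in TIC cells of each pair, with a mean difference of -0.04. Rps7, Rps25, Rps20 and Rps18 were higher in TIC cells of each pair, with mean differences of 0.15, 0.14, 0.11 and 0.10 and adjusted p-values of 0.354 to 0.492 (limma).

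Rps3a1, the mouse gene of the protein eS1, had the widest mean difference among small subunit genes. It was at 9.48, 9.60, 9.74 and 9.11 in TIC cells, against 8.996, 9.16, 9.18 and 9.42 in CD24-negative cells. The pair of the pool ran against the others, -0.30 where N251, N260 and N283 had 0.49, 0.44 and 0.56. The mean of the 4 pairs was 0.29 (adjusted p = 0.330, limma), and without the pool it was 0.49. Fau, which encodes a ubiquitin-like protein fused to a small subunit protein and was measured outside the rule, differed by -0.06 (adjusted p = 0.664, limma).

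**Figure D2:**
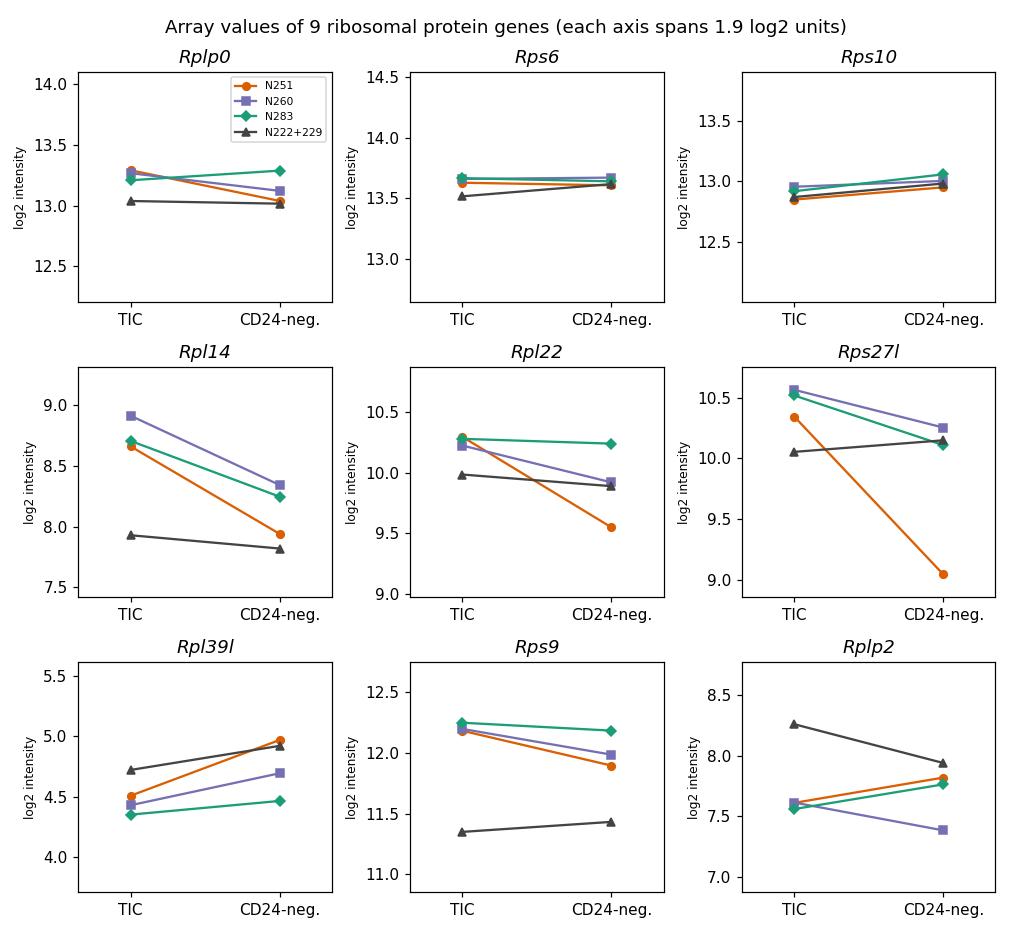
Deposited log2 intensity (y axes, all of the same span) of 9 ribosomal protein genes in the TIC array (left) and the CD24-negative array (right) of each tumor or pool, with lines joining the arrays of a pair. Rps6 and Rps10 are nearly flat, the pairs of Rplp0 differ in sign, and Rpl14 slopes the same way in each pair. N251 alone is low for Rps27l in CD24-negative cells, and the pool stands apart in both fractions for Rps9 and Rplp2.

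Paralogs are copies of ribosomal protein genes that replace or accompany the usual protein, often in 1 tissue. The 7 measured here had a median difference of 0.12 and of 0.01 after cyclic loess. Rps27l, a paralog of Rps27 that p53 induces, was at 10.35, 10.57, 10.52 and 10.05 in TIC cells, against 9.04, 10.25, 10.11 and 10.15 in CD24-negative cells. The CD24-negative array of N251 was over 1.0 log2 units below the other arrays of that fraction, and the pool ran the other way. The mean difference of Rps27l was 0.48 ± 0.22 (SE, n = 4 pairs, 95% interval -0.07 to 1.03, adjusted p = 0.269, limma). It was 0.21 without N251.

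Rpl39l, a paralog of Rpl39 used mainly in the testis, was dim in all arrays. It was at 4.51, 4.43, 4.35 and 4.72 in TIC cells, against 4.97, 4.69, 4.47 and 4.92 in CD24-negative cells. TIC cells had the lower value of each pair, and the fractions overlapped. The difference was -0.26 ± 0.08 (SE, n = 4 pairs, 95% interval -0.47 to -0.05, unadjusted p = 0.0236 and adjusted p = 0.168, both limma). Rpl10l, which replaces the X-linked Rpl10 in mouse meiotic male germ cells, differed by -0.05 (adjusted p = 0.822, limma), and by 0.02 after quantile normalization. Rpl3l, a paralog of striated muscle, differed by 0.12 and Rpl7l1 by 0.13, both positive in each pair (adjusted p = 0.414 and 0.367, limma). Rpl3l and Rpl10l were also dim, with mean levels of 5.56 and 6.57, against 10.4 for Rpl7l1. Rps4l differed by 0.04 and Rpl32l by 0.14.

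The differences varied between tumors. Tumor N251 had a median over members of 0.24, N260 of 0.11, N283 of 0.04 and the pool of -0.06, and the number of members higher in TIC cells was 53, 51, 39 and 18 of 61. For all genes the medians were 0.07, 0.08, 0.01 and 0.01, with 59.3%, 64.6%, 52.3% and 52.6% higher in TIC cells. Cyclic loess turned the median of N251 to -0.07 and gave 0.06, 0.01 and -0.07 in N260, N283 and the pool. The median of N251 stayed positive with median centring (0.25) and quantile normalization (0.21). The pool kept a negative median, of -0.04 to -0.07, under each of the deposited, median-centred, cyclic loess and quantile-normalized scalings.

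Tumor N251 had 27 members with a difference over 0.25, N260 had 7, N283 had 5 and the pool had 2. Those under -0.25 numbered 1, 2, 0 and 3. The SD of the differences over all genes fell in the same order of tumors, at 0.82, 0.57, 0.43 and 0.37. The share of all genes past 0.25 in each tumor was not counted. The highest difference of N251 was that of Rps27l, 1.303, and in N260 that of Rpl14, 0.57. In N283 Rps3a1 was the highest with 0.56, and in the pool Rplp2 with 0.32. Over the 61 members the differences of N251 and N260 correlated with r = 0.62, those of N251 and N283 with r = 0.49 and those of N260 and N283 with r = 0.49. The pool correlated with N251, N260 and N283 at -0.09, -0.02 and -0.19. Over all genes every pair of tumors correlated at 0.65 to 0.88. The members of an array share its RNA and scaling, so these values are descriptions.

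The CD24-negative fraction was rich in leukocyte RNA, to a degree that differed between tumors. Of 10 macrophage markers 9 fell in TIC cells, as did 5 of 7 pan-leukocyte and 2 of 6 T and NK cell markers. The summed linear intensity of the macrophage markers was 841 to 1120 in TIC arrays, against 12480 to 64587 in CD24-negative arrays. For the pan-leukocyte markers it was 3829 to 4207 in TIC arrays, against 7043 to 27695 in CD24-negative arrays. The median log2 level of these markers was 6.07 to 6.50 in TIC arrays, against 9.03 to 11.7 in CD24-negative arrays. Their differences ran from -5.50 to -0.30, so the sum is not shared evenly. For the T and NK cell markers the summed intensity was 434 to 519, against 1820 to 19043. The pairs of N251, N260, N283 and the pool had median macrophage differences of -6.20, -5.42, -4.51 and -3.43. With the deposited scaling the medians of the ribosomal protein genes had the same order of tumors. The ribosomal medians kept this order with median centring (0.25, 0.16, 0.09 and -0.04) and with quantile normalization (0.21, 0.14, 0.008 and -0.07). After cyclic loess those medians were -0.07, 0.06, 0.01 and -0.07, and the order was lost. The luminal epithelial markers had medians of 0.94, 0.24, 0.004 and 0.11 in the same pairs.

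Luminal epithelial markers summed to 20853 to 22482 in TIC arrays, against 11214 to 21068 in CD24-negative arrays, and 0 of 8 were called in either direction (limma), with 2 at an unadjusted p under 0.05. Of 5 fibroblast and 4 endothelial markers 0 were called (limma), with 3 and 2 at an unadjusted p under 0.05 and summed intensities of 637 to 752 and 248 to 292 in TIC arrays, against 752 to 1089 and 294 to 433 in CD24-negative arrays. An intensity on this platform does not reach 0, so no marker was at 0. The part of the leukocyte RNA in the differences of the ribosomal protein genes was not tested.

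**Figure D3:**
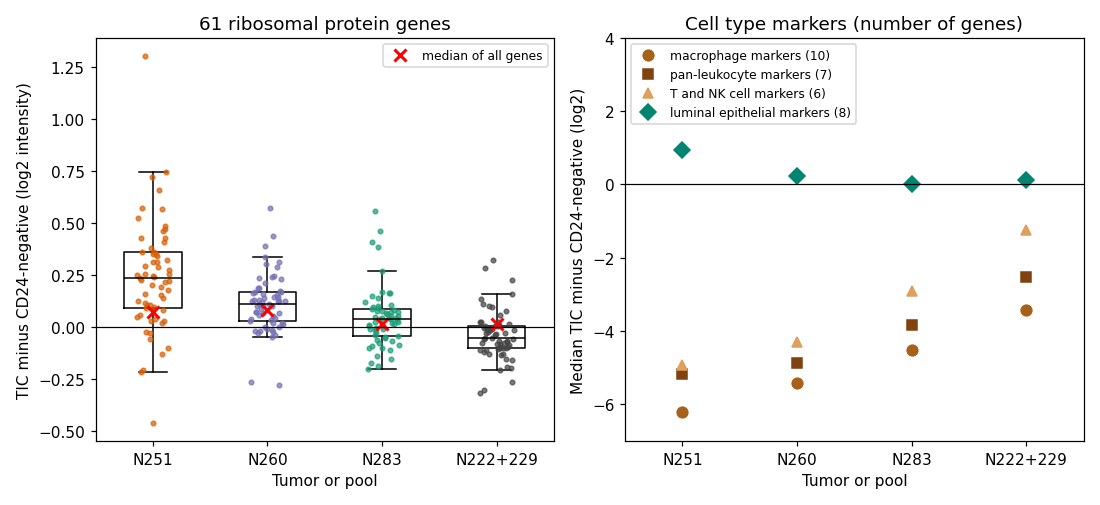
Left, TIC minus CD24-negative differences (y axis, log2 intensity, deposited scaling) of the 61 ribosomal protein genes in each tumor or pool, as points with a box for the median and quartiles, whiskers to 1.5 times the quartile range and a red cross for the median of all genes. Right, median differences of 4 lists of cell type markers in the same pairs. The ribosomal median is 0.24 in N251 and -0.06 in the pool, and the macrophage median is -6.20 and -3.43. The ribosomal medians of N251 and the pool are -0.07 and -0.07 after cyclic loess, and 0.25 and -0.04 with median centring. With quantile normalization they are 0.21 and -0.07.

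The pool also stood apart from the single tumors, more so in TIC than in CD24-negative cells. The median departure of its array from the mean of the other 3 was -0.25 over the members in TIC cells and -0.03 in CD24-negative cells. For 31 of 61 members both arrays of the pool lay outside the range of the other 6 arrays, 24 below it and 7 above it (50.8%, against 29.0% of all genes). The same count was 5 members for N251 (8.20%, against 13.4% of all genes) and 2 for N260 (3.28%, against 5.61%). N283 had 7 (11.5%, against 3.52%), or 3 with median centring (4.92%, against 3.85%). For N283 cyclic loess gave 4 (6.56%, against 4.71%) and quantile normalization 2 (3.28%, against 4.34%). With median centring 11 members lay below and 12 above in the pool (37.7%, against 30.0% of all genes), so that most of the excess over all genes was gone. With cyclic loess 38 lay below and 2 above (65.6%, against 27.9%), and with quantile normalization 26 and 4 (49.2%, against 26.3%). The pool is 1 pair of arrays from a mixture of 2 tumors, so this has no replicate and no test.

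Rps9, a small subunit protein near the mRNA entry, stood furthest below. It was at 11.35 in TIC cells and 11.43 in CD24-negative cells of the pool, against 11.90 to 12.25 in the other 6 arrays. Rpl24, which reaches across to the small subunit and is mutated in the Belly spot and tail mouse, was at 10.15 and 10.31, against 10.45 to 11.15. Rps29, a zinc-binding protein of the small subunit, was at 9.91 and 10.10, against 10.48 to 10.70. In each case neither fraction of the pool reached the lowest of the single tumors. Rpl8, near the catalytic centre of the large subunit, was at 10.64 and 10.70 in the pool, against 11.005 to 11.43, and Rpsa at 11.19 and 11.22, against 11.52 to 11.86.

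Other members stood above in the same arrays. Rpl28 was at 13.51 in TIC cells and 13.56 in CD24-negative cells of the pool, against 13.13 to 13.28 in the other arrays. Rplp2 was at 8.26 and 7.94, against 7.38 to 7.82. Rps3, which lies at the mRNA entry channel, was at 11.42 and 11.52, against 11.03 to 11.39. Members of each subunit were found on both sides of the single tumors with the deposited scaling. Over the 61 members the departures of the pool from the other tumors correlated between TIC and CD24-negative cells at r = 0.74, with 0.16, 0.68 and 0.58 for the same measure in N251, N260 and N283.

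**Figure D4:**
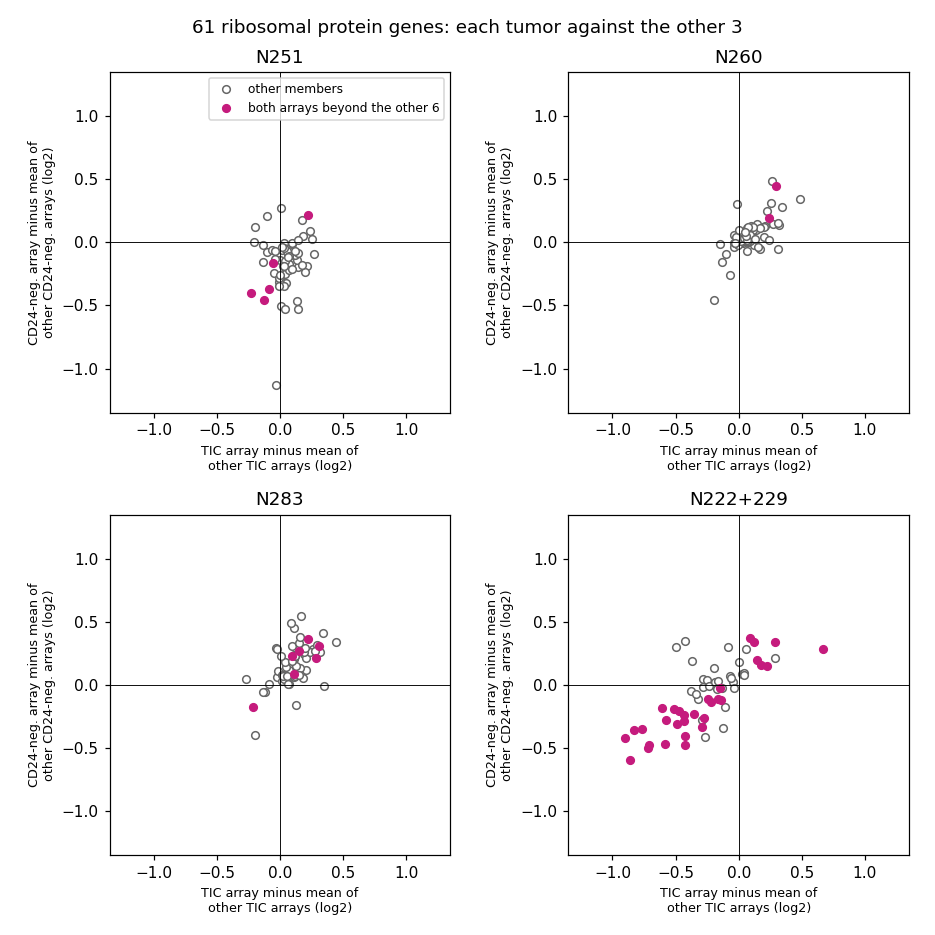
Departure of each tumor or pool from the mean of the other 3 (log2 intensity, deposited scaling), in its TIC array (x axis) and its CD24-negative array (y axis), for the 61 ribosomal protein genes. Filled points are genes with both arrays outside the range of the other 6 arrays, 31 in the pool (24 below and 7 above, or 38 and 2 with cyclic loess), against 5, 2 and 7 in N251, N260 and N283.

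The bright members varied least between pairs. The 21 members with a mean of 12 or above had differences of -0.10 to 0.14 with a median of 0.06, and the SD of the differences over the 4 pairs had a median of 0.10. The 26 members between 10 and 12 had a median difference of 0.12 and a median SD of 0.16, and the 14 below 10 had 0.11 and 0.18. Differences between the bands were not tested. The SD between arrays of a fraction had a median of 0.14 in TIC cells and 0.18 in CD24-negative cells for the members, against 0.15 and 0.20 for all genes. The CD24-negative SD was the larger for 28 members (45.9%), against 65.3% of all genes.

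Many ribosomal protein genes have processed pseudogenes, so their rows can share RNA with near-identical copies. The 61 members had 217 rows, with 1 row for 22 members and up to 14 for Rps12. The 156 rows other than the brightest had a median difference of 0.09 (range -0.09 to 0.27). The rows of a gene differed from each other by a median of 0.06, and 5 of the 39 members with several rows had rows of both signs. The 14 rows of Rps12 ran from 0.18 to 0.24, and the 8 rows of Rps6 from -0.02 to 0.01. A fit of all 35556 rows called 0 of the 217, with 3 at an unadjusted p under 0.05 (limma). That fit called 2 rows in all (0.00562%), so the 0 says nothing about the members, and 17.8% of all rows had an unadjusted p under 0.05. The rows that carried a ribosomal protein symbol among several numbered 237, with a median difference of 0.05, and 0 were called, with 1 at an unadjusted p under 0.05 (limma).

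Genes that act with the ribosome were not called either, which at the shares of all genes says little for lists of this size. They are read against all genes, of which 0.863% were called higher and 1.09% lower, 22.3% had an unadjusted p under 0.05 and 23.2% were higher in TIC cells of all 4 pairs. Of 23 measured translation initiation factors 0 were called, and 4 had an unadjusted p under 0.05 (limma), with a median difference of 0.13, 0.02 after cyclic loess. Eif3e, a subunit of the factor that binds the small subunit, differed by 0.30 (adjusted p = 0.122, limma). The 5 elongation factors had a median of 0.11 and -0.01 after cyclic loess, with 0 called, 0 at an unadjusted p under 0.05, and Eif5a at 0.28 (adjusted p = 0.236, limma). Of 15 Myc and mTOR regulators 0 were called, and 0 had an unadjusted p under 0.05 (limma), with a median of 0.01 and -0.11 after cyclic loess. Myc itself differed by 0.20 (adjusted p = 0.241, limma).

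Genes of ribosome production were measured as well. Of 39 nucleolar assembly genes 0 were called and 12 had an unadjusted p under 0.05 (limma), with a median of 0.15 (0.04 after cyclic loess) and 18 higher in TIC cells of all 4 pairs, where all genes have shares of 22.3% and 23.2%. Gar1, a protein of the particles that modify ribosomal RNA, differed by 0.41 (adjusted p = 0.0742, limma). Of 11 RNA polymerase I genes 0 were called and 4 had an unadjusted p under 0.05 (limma), with a median of 0.21 (0.09 after cyclic loess), and Polr1a, the largest subunit, differed by 0.31 (adjusted p = 0.182, limma). Of 77 mitochondrial ribosomal protein genes 0 were called and 26 had an unadjusted p under 0.05 (limma), with a median of 0.21 (0.11 after cyclic loess) and 39 higher in all 4 pairs, and Mrpl42 differed by 0.44 (adjusted p = 0.0654, limma). The difference between these lists and the cytosolic ribosomal proteins, or all genes, was not tested.

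Of 12 other mRNAs known to carry the TOP motif 0 were called and 3 had an unadjusted p under 0.05 (limma), with a median of 0.07 and -0.03 after cyclic loess. Vim, the vimentin of mesenchymal and blood cells, differed by -1.59 (adjusted p = 0.0601, or 0.0218 where the tumor was a random block, both limma).

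**Figure D5:**
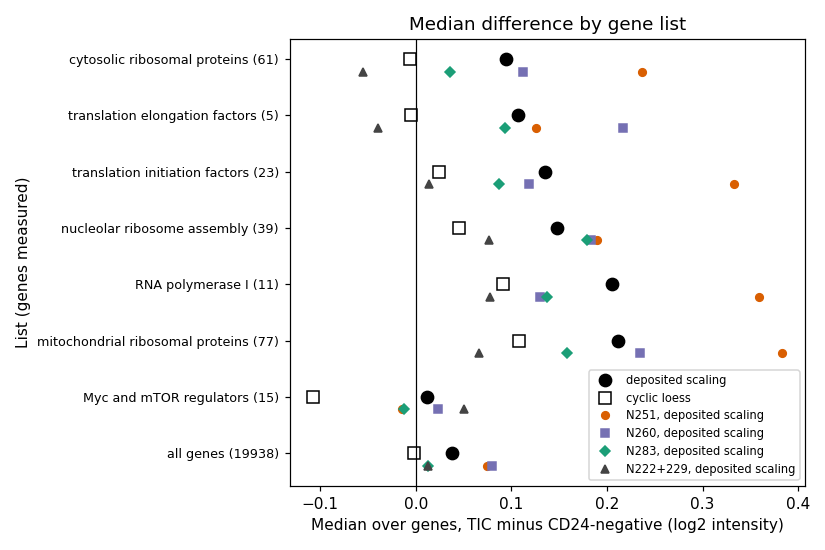
Median TIC minus CD24-negative difference (x axis, log2 intensity) of each list of genes (y axis, with the number measured), as a filled circle for the deposited scaling, an open square for cyclic loess and coloured symbols for each tumor or pool. The cytosolic ribosomal proteins have a median of 0.09 (-0.01 with cyclic loess), and the mitochondrial ones of 0.21 (0.11).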

How the data were processed

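The authors deposited log2 intensities, made with RMA and Partek per the submitters' processing notes. Versions, settings and build are not given in the sources used. Values ran from 1.76 to 14.6, with array medians of 7.03 to 7.18, and arrays correlated at 0.893 to 0.994. Precision is limited by the number of arrays. Titles name tumors N251 and N260 where the growth protocol has N250 and N261, and the titles were followed.

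Of 35556 rows 21789 had 1 symbol in the platform annotation, 1621 several and 12146 none here. Identifiers of 21698 rows matched the RefSeq table of GRCm38.p6, with 0 renamed. Promoter sequences are RefSeq's, found for 49 members.

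Differences came from limma 3.58.1 (lmFit, then eBayes, under R 4.3.3) with the tumor as a replicate block, on all 8 arrays without a filter, adjusted by Benjamini-Hochberg over 19938 genes. Per the labels each pair of fractions shares its tumor or pool, and the paired arrays' deviations from the mean of their fraction correlated over genes at 0.32, 0.43, 0.30 and 0.56 in N251, N260, N283 and the pool. The fit was tested on simulated data. No label gives a batch of arrays.

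The members and lists were chosen with earlier results of these data known. Members were named for being in a fixed set (Rplp0, Rpsa, Rps6 and Fau), a paralog, of 1 sign in all pairs, among the brightest or dimmest, or for an array far from its group, and in each other list for the smallest p. Rps3a1, Rpl24, Rpl5, Rpl8, Rpl28, Rpl38, Rps3, Rps18, Rps20, Rplp1 and Rpl32l, the comparison of each tumor with the others and the by-tumor scalings were chosen after values were seen. Alternatives covered the block, scaling, filter, array weights, prior, rows, threshold and each tumor left out.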

Additional observations from a re-analysis of the deposited data

Results flagged for a closer look

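Among 124 groups of 4 array values (the 61 genes and the median over them, in each of 2 fractions), 11 held an array far from the other 3. Chance gives about 1 in 20, or 6, for independent groups, but these groups share the same 8 arrays. The share over all genes was not counted, and both pool arrays lay outside the other 6 for 29.0% of all genes. In 9 of the 11 groups the array set apart was the TIC array of the pool. In that array Rpl21 was at 13.36, Rpl27a at 11.34, Rpl7 at 11.03, Rps12 at 10.45 and Rps21 at 7.847. Rps29 was at 9.906, Rps4l at 6.723 and Rps9 at 11.35 in the same array, all lower than in the other TIC arrays. Rplp2, at 8.259, was higher than in the other TIC arrays. The CD24-negative array of the pool was low for Rpl34, at 7.935, and the CD24-negative array of N251 was low for Rps27l, at 9.042. The pool mixes 2 tumors, and whether the mixture, the tumors or the arrays account for these values was not tested.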

How the results depend on the processing

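No alternative called a member in either direction. An adjusted p under 0.01 and the fits without N260 or without N283 called 0 of all genes. The 0 for the members was therefore fixed in those settings. Across the alternatives the lowest adjusted p of a member (limma) ran from 0.0646 with array weights to 0.373 without N260, and 0 to 6 members had an unadjusted p under 0.05. Without the replicate block the lowest was 0.372 and 0 members passed unadjusted. The median of the members ran from -0.01 with cyclic loess to 0.13 with median centring. The settings of the block, prior, brightness filter and threshold leave a mean difference unchanged, so they could not change its sign. Of 402 values of named members under all alternatives, these included, 26 changed sign, and the cause was not tested. With cyclic loess they were Rplp0 (-0.005564), Rpsa (-0.0471), Rpl10 (-0.07407), Rpl27a (-0.04484), Rpl34 (-0.002277), Rplp2 (-0.03608) and Rps21 (-0.1017). With quantile normalization they were Rpl10l (0.02428), Rpl10 (-0.02333) and Rps21 (-0.03343). With median centring they were Rps6 (0.01666), Rpl21 (0.006434) and Rps29 (0.007136). Array weights gave Rpl10 -0.0005218, and the mean of all rows gave Rps29 0.01571. Leaving out each tumor in turn gave -0.0303 to 0.01213 for Rps6, -0.1194 to 0.03323 for Rpl10l, -0.00248 to 0.1165 for Rps4l and -0.0171 to 0.03097 for Rpl10. It gave -0.013 to 0.2942 for Rpl7, -0.06096 to 0.1154 for Rplp2, -0.05617 to 0.1053 for Rps21 and -0.0825 to 0.03 for Rps29.

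The background moved more. Of all genes 172 were called higher and 218 lower in TIC cells. The counts were 10 and 148 without the replicate block, 430 and 606 when the block was random, 445 and 572 under array weights, 63 and 88 among bright genes, 84 and 120 with cyclic loess, and 0 and 0 at an adjusted p under 0.01 (4447 at an unadjusted p under 0.05, limma). Quantile normalization called 115 lower. Leaving out a tumor gave 0 to 360 higher and 0 to 480 lower, with 0 in both directions without N260 or N283 (2556 and 3343 genes at an unadjusted p under 0.05, limma), 74 and 299 without the pool, and the most without N251. The median of all genes was 0.112 among bright genes and -0.002115 with cyclic loess. The limits are 4 pairs of arrays, an unknown gate, a pool of 2 tumors and rows that may share RNA with pseudogenes.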
